A study of Homo sapiens with 24 samples.

Results

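Intergenic Myc peaks are places where the transcription factor Myc was detected with a summit outside every annotated gene. The peaks themselves may reach into a non-coding gene. They were taken from the peak lists of 2 Myc CUT&Tag libraries as the peaks on chromosomes 1 to 22 and X whose summit lay in no RefSeq gene span of any biotype, and which did not reach within 1 kb of either end of a protein-coding gene. The rule found 779 of 6718 peaks at day 5 of doxycycline (11.6%, exact 95% Clopper-Pearson interval 10.8% to 12.4%) and 425 of 3468 peaks without doxycycline (12.3%, 11.2% to 13.4%). The other peaks lay at coding gene ends (4475 at day 5 and 2296 without doxycycline), inside coding genes (1065 at day 5 and 514 without doxycycline) or only inside non-coding genes (399 at day 5 and 233 without doxycycline).

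MIA PaCa-2, a widely used line from a human pancreatic tumour, had been given a tet-on construct from which doxycycline induces MED30. The cells of one library had received doxycycline for 5 days according to the sample title, and those of the other carried the same construct with no doxycycline. The labels give no doxycycline dose for these libraries and do not say whether the line is a pool or a clone. In CUT&Tag, an antibody brings a transposase to the protein on chromatin, so that sequenced fragments mark where the protein sat. Each condition had 1 library, so no difference between conditions has a replicate check, and no test was made. The intervals given here cover the counting of peaks or fragments only.

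Myc pairs with Max on DNA and prefers the E-box, whose canonical form is CACGTG. Most of its binding is at promoters, but it also occupies enhancers between genes, and it acts on genes of all 3 nuclear RNA polymerases, among them tRNA genes read by RNA polymerase III. MED30 belongs to Mediator, which passes signals from bound transcription factors to RNA polymerase II.

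Among the intergenic peaks, those whose summit fell within the start region of a long non-coding RNA (lncRNA) can be shown with their sequence. The RefSeq windows of GRCh38.p14 run from 250 bases before to 50 bases after a transcription start, 5′ to 3′ on the gene's strand. Of the windows that follow, 4 hold the E-box and are shown for it, with CACGTG in capitals, and that of LINC00941, the most covered of the day 5 windows with a summit, has none. They are LINC01703 (chr1:226083325-226083624, plus strand), LINC01431 (chr20:23358078-23358377, minus strand), ENEMAL (chr11:65477438-65477737, minus strand), LINC02851 (chr9:6704057-6704356, plus strand) and LINC00941 (chr12:30795431-30795730, plus strand).
LINC01703: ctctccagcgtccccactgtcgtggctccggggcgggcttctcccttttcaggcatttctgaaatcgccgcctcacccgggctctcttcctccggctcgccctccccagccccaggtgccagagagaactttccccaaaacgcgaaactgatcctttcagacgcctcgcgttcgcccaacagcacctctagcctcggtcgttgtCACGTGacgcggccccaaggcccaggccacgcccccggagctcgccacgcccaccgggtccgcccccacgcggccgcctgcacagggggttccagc
LINC01431: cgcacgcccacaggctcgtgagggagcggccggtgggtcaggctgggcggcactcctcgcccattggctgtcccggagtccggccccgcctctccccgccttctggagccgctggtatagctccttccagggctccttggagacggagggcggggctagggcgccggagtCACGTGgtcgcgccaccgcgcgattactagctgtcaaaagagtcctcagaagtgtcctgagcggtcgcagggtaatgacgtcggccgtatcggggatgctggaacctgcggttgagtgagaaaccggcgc
ENEMAL: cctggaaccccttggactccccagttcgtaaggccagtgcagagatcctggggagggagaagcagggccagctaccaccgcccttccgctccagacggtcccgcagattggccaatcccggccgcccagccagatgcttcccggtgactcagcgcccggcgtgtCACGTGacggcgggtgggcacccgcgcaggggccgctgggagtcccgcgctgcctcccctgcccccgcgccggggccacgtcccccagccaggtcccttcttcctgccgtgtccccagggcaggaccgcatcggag
LINC02851: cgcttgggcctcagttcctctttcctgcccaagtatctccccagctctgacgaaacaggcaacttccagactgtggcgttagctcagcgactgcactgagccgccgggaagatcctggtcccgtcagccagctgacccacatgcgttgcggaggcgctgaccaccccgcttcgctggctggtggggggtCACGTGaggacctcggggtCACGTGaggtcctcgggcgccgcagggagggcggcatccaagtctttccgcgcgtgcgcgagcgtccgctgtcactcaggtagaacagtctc
LINC00941: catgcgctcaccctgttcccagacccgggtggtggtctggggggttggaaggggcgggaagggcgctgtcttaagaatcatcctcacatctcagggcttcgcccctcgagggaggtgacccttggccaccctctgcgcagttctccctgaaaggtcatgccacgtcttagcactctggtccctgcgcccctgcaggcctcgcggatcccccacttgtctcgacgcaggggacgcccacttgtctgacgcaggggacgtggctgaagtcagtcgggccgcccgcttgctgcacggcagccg

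The LINC01703 peak had 23 fragments over its summit at day 5 (95% Poisson interval 14.6 to 34.5) and 15 without doxycycline. Its day 5 summit lay 58 bases before the start, and the E-box began 46 bases before it. LINC01431 had 18 and 12 fragments at day 5 and without doxycycline, with the summit 97 and the E-box 80 bases before the start. LINC02851 had 13 fragments at day 5 and 10 without doxycycline, with the day 5 summit 233 bases and its 2 E-boxes 61 and 42 bases before the start. ENEMAL had 23 fragments at day 5 and no peak in the list without doxycycline, with the summit 244 and the E-box 86 bases before the start. The summit thus lay close to the E-box in LINC01703 and LINC01431 and farther from it in LINC02851 and ENEMAL. LINC00941, with no E-box in the window, had 47 fragments at day 5 (34.5 to 62.5) and 28 without doxycycline (18.6 to 40.5). The intervals of the 2 libraries overlapped at each of these windows that was listed in both.

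In all, 35 lncRNA windows held the summit of an intergenic peak at day 5 and 13 did so without doxycycline. CACGTG was found in 6 of the 35 day 5 windows (17.1%, 6.56% to 33.6%) and 2 of the 13 windows without doxycycline (15.4%, 1.92% to 45.4%), against 5.41% of all 12829 lncRNA windows. The related form CACGCG, searched on both strands, was in 31.4% of the day 5 windows, 46.2% of the windows without doxycycline and 6.60% of all. TGANTCA, the AP-1 site, was in 25.7% of the day 5 windows, 15.4% of those without doxycycline and 10.3% of all. These windows were also richer in G and C, with a median of 64.7% at day 5 and 61.7% without doxycycline, against 50% in all windows, and its part in the motif shares was not tested. Windows on chromosome 8 were not used, and the sequence under the remaining intergenic peaks was not analysed here.

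Intergenic peaks lay mostly within 50 kb of a coding gene, closer than the sequence open to them. The median distance from a summit to the nearest coding gene end was 20.8 kb at day 5 and 20.3 kb without doxycycline. Within 1 to 5 kb lay 14.5% of the day 5 peaks (12.1% to 17.2%) and 16.5% of those without doxycycline (13.1% to 20.3%), a zone that holds 5.98% of the 1332.89 Mb that meet the rule, assembly gaps included. Beyond 500 kb lay 3.08% of the day 5 peaks and 3.76% of those without doxycycline, in a zone that holds 25.8% of that sequence. The intervals of the libraries overlapped in each distance class. The nearest coding end was a start in 325 of 590 day 5 peaks with known strand (55.1%, 51.0% to 59.1%) and in 171 of 317 without doxycycline (53.9%, 48.3% to 59.5%), against 50.4% of the sequence. At the edge of the rule, the 26 day 5 peaks that ended 1000 to 1500 bp from a coding gene end had a median of 11.5 fragments, and the 33 that ended 500 to 1000 bp from one, which are outside the rule, had 16. Without doxycycline these were 20 peaks with a median of 13.5 fragments inside the rule and 28 with 9.5 outside it.

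**Figure D1:**
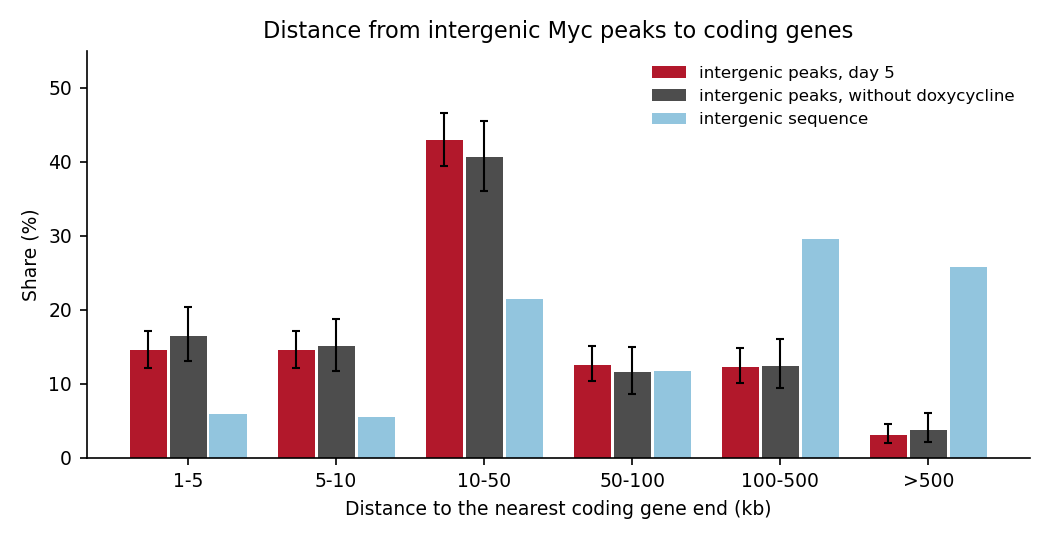
Bars give the share of intergenic Myc peaks, in percent, by the distance of the summit to the nearest coding gene end in kb, for day 5, for the library without doxycycline, and for the sequence that meets the rule. Error bars are exact 95% Clopper-Pearson intervals for the counting of peaks. In the class of 1 to 5 kb both libraries stand above the sequence share of 5.98%, and beyond 500 kb both stand below its 25.8%.

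Many intergenic peaks sat beside a non-coding gene. Of the day 5 peaks, 184 (23.6%, 20.7% to 26.8%) had their summit within 1 kb of the end of one, and 96 (22.6%, 18.7% to 26.9%) did so without doxycycline, against 2.75% of the sequence. The largest class were lncRNA genes, with 91 day 5 peaks (11.7%) and 51 without doxycycline (12.0%), in a zone of 1.39% of the sequence. Where the strand of the lncRNA was known, the peak was at the start rather than the far end in 60 of 68 cases at day 5 (88.2%, 78.1% to 94.8%) and in 30 of 33 without doxycycline (90.9%, 75.7% to 98.1%). Pseudogenes neighboured 40 day 5 peaks and 22 without doxycycline.

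**Figure D2:**
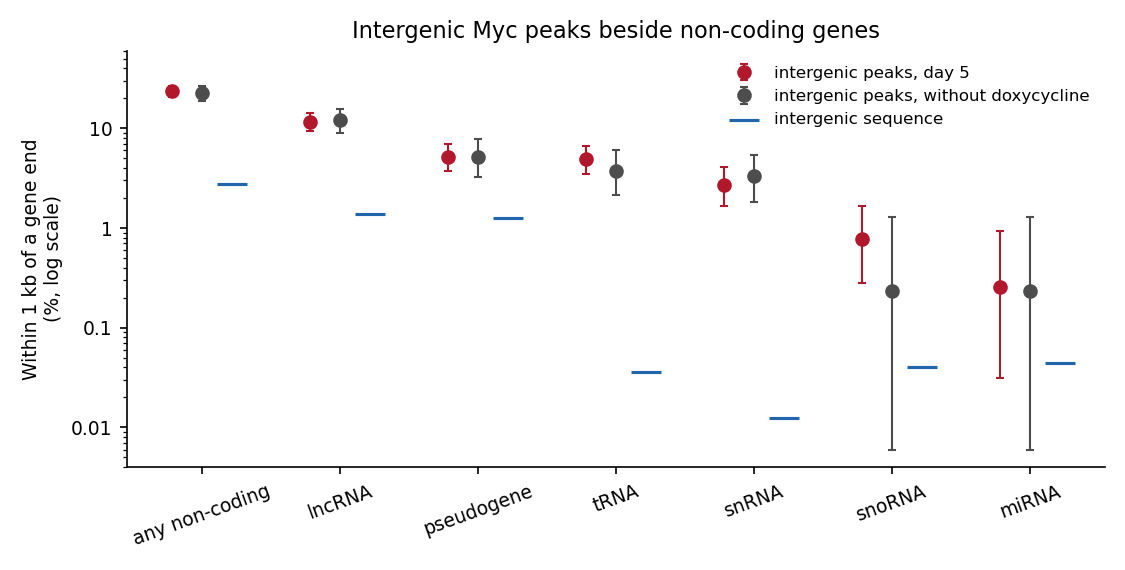
Points give the share of intergenic Myc peaks, in percent on a log axis, whose summit lay within 1 kb of the end of a non-coding gene of each biotype, with exact 95% Clopper-Pearson intervals. Bars mark the share of intergenic sequence in the same windows. For tRNA and snRNA genes the peaks of both libraries lie between 2.70% and 4.88% while the sequence shares are 0.0362% and 0.0124%.

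Hosts of small nucleolar RNAs, the SNHG genes, ranged widely among the lncRNA neighbours, whose median was 12 fragments at day 5. SNHG5 had 49 fragments at day 5 (36.3 to 64.8) and 20 without doxycycline (12.2 to 30.9), and these intervals did not overlap. SNHG29 had 28 fragments at day 5 and 20 without doxycycline. SNHG16 had 14 at day 5 and 12 without doxycycline, and SNHG8 had 9 at day 5 and 8 without doxycycline. CRNDE, an lncRNA raised in colorectal tumours, had 20 fragments at day 5 and 13 without doxycycline. In the other direction, LINC03108 had 13 fragments at day 5 and 25 without doxycycline, with overlapping intervals.

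The peak at the start of MIRLET7A1HG, the host gene of 3 let-7 microRNAs on chromosome 9, was listed at day 5 only, with 18 fragments (chr9:94165848-94166237, 10.7 to 28.4). let-7 microRNAs repress growth-promoting messages, MYC among their reported targets. The mature RNAs of the cluster, from RefSeq on GRCh38.p14, are shown because the 3 share the seed, bases 2 to 8, in capitals.
let-7a-5p: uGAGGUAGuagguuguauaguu
let-7f-5p: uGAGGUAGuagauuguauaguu
let-7d-5p: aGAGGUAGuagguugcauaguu

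The genes for small RNAs took few bases and many peaks. tRNA genes had 38 intergenic peaks within 1 kb at day 5 (4.88%, 3.47% to 6.63%) and 16 without doxycycline (3.76%, 2.17% to 6.04%), in windows that cover 0.0362% of the sequence. The day 5 peaks lay nearest to 38 different tRNA genes of 17 isotypes, out of 443 tRNA genes annotated, and those without doxycycline to 16 genes of 11 isotypes. They were of ordinary strength, with a median of 10.5 fragments at day 5 (range 3 to 26) and 11 without doxycycline (range 6 to 26). The highest at day 5 was beside TRA-TGC4-1, an alanine tRNA gene, with 26 fragments. It overlapped a peak of 20 fragments without doxycycline, whose summit was nearest to another tRNA gene, TRD-GTC2-10, 8 bp away. TRU-TCA1-1, which encodes the selenocysteine tRNA, had 15 fragments at day 5 and 13 without doxycycline. Chromosome 6, which carries the large tRNA gene cluster, held 12 of the day 5 peaks and 6 of those without doxycycline. A counterpart in the other list was found for 13 of the 38 day 5 peaks (34.2%), against 42.4% of all day 5 peaks. Without doxycycline it was found for 12 of the 16 (75%), against 82.2% of all peaks of that list.

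snRNA genes, which encode the RNAs of the spliceosome, had 21 intergenic peaks within 1 kb at day 5 (2.70%) and 14 without doxycycline (3.29%), in windows that cover 0.0124% of the sequence. These had more fragments than intergenic peaks as a whole, with a median of 30 fragments at day 5 and 19.5 without doxycycline, against medians of 11 at day 5 and 10 without doxycycline over all intergenic peaks. Of the U1 genes on chromosome 1, RNU1-3 had 47 fragments at day 5 (34.5 to 62.5) and 20 without doxycycline (12.2 to 30.9). RNU1-2 had 29 at day 5 and 14 without doxycycline. RNU1-1 had 26 at day 5 and no peak without doxycycline. RNU1-3 was the U1 gene whose intervals did not overlap. The U1 genes are repeated copies, so reads may have been divided among them, and single values are uncertain.

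The run with the most intergenic peaks lay beyond RNU2-1, the gene of the U2 spliceosomal RNA. RefSeq annotates 13 snRNA genes over 66.4 kb of chromosome 17 there (chr17:43233790-43300231), each 188 to 192 bp long, and 12 of them had a peak within 1 kb at day 5 and 8 without doxycycline. LOC124904135 and LOC124904136, which are close together, share 1 peak. The copy LOC124904138 had 89 fragments at day 5 (71.5 to 109.5) and 55 without doxycycline (41.4 to 71.6). LOC124904139 had 58 at day 5 and 28 without doxycycline, with intervals apart. LOC124904141 had 68 at day 5 and 44 without doxycycline, and RNU2-1 itself had 31 at day 5 and no peak without doxycycline. All 8 copies with a peak in both lists had more fragments at day 5. The copies are short and near-identical repeats as a class, so the aligner may have divided reads among them, and single values are uncertain. Because the genes are so short, the rule here turns on a few bases: the summit at LOC124904138 was 99 bp outside the gene at day 5 and 5 bp inside it without doxycycline.

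The SNORD3 genes, which encode the U3 RNA of ribosomal RNA processing, had 3 intergenic peaks at day 5, with 26 fragments at SNORD3C, 15 at SNORD3D and 10 at SNORD3B-1. None of these was listed without doxycycline, and 57.6% of all day 5 peaks also overlapped no peak of that list. SNORD3A, whose summit fell inside the gene and which is therefore outside the rule, had 33 fragments at day 5 and 31 without doxycycline. These genes too are repeated copies, so values for a single copy are uncertain.

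FAM86 pseudogenes held 5 of the 18 intergenic peaks with at least 50 fragments at day 5 and all 4 of those without doxycycline. They are copies related to a lysine methyltransferase gene that has spread over several human chromosomes. Of 14 annotated members of this name, 7 pseudogenes had an intergenic peak in both lists, each 278 to 455 bp from a gene end at day 5. FAM86B3P had 99 fragments at day 5 (80.5 to 120.5) and 80 without doxycycline (63.4 to 99.6). FAM86FP had 75 at day 5 and 52 without doxycycline, and FAM86GP had 70 at day 5 and 53 without doxycycline. FAM86EP, the lowest at day 5, had 37 at day 5 and 24 without doxycycline. The ratio of day 5 to no doxycycline was between 1.24 and 1.54 in all 7, and the intervals overlapped in each. FAM86HP and FAM86JP had peaks of 77 and 37 fragments at day 5 and of 70 and 25 without doxycycline, but their summits fell in another non-coding gene. Reads of near-identical copies can be placed on any of them, so these values too are uncertain for a single copy.

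**Figure D3:**
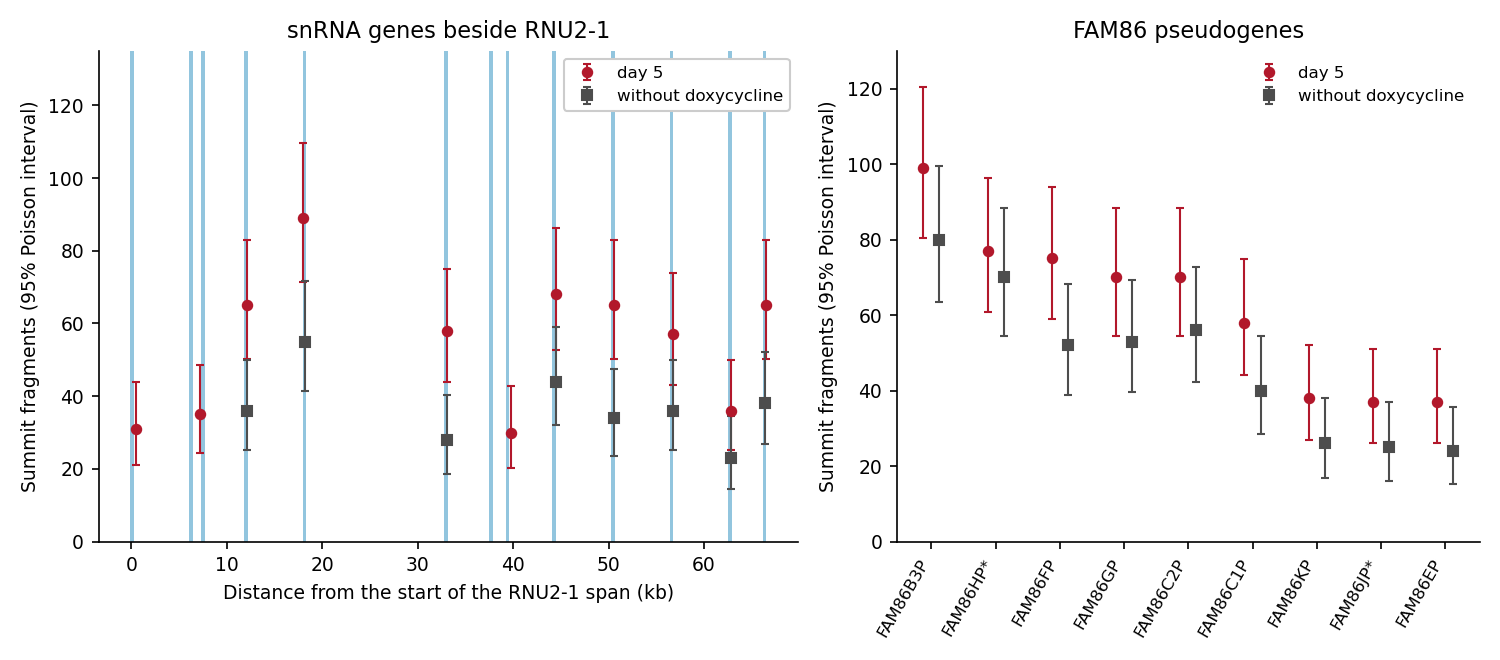
Left, fragments over the summit of each peak at the 13 snRNA genes (blue stripes) beside RNU2-1, against the distance in kb from the start of the RNU2-1 span. Right, the same for the 9 FAM86 pseudogenes with a peak in both lists, where an asterisk marks a summit inside another non-coding gene. Points are single libraries with exact 95% Poisson intervals, and in every pair the day 5 point is the higher.

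The highest ratio between the lists was at 1 chromosome end, the only end with a peak in both. Within 50 kb of the outermost assembled or annotated base, 6 intergenic peaks were listed at day 5 and 1 without doxycycline. The peak at the start of chromosome 5 (chr5:10094-11759) had 155 fragments at day 5 (131.6 to 181.4) and 10 without doxycycline (4.80 to 18.4), a ratio of 15.5, which was the highest of all shared pairs in these lists. The local background recovered at this peak also differed, with 14.1 fragments at day 5 and 0.690 without doxycycline. Its part in the ratio was not tested. The other 5 end peaks had no counterpart, with 79 fragments on chromosome X (chrX:156030359-156030734), 75 on chromosome 12, 54 on chromosome 22, 46 on chromosome 10 and 19 on chromosome 1. Peaks of the other position classes in the same end zones numbered 8 at day 5, with 5 to 35 fragments, and 3 without doxycycline, with 12 to 28. Chromosome ends are repetitive, so the placement of these reads is uncertain, and an input or IgG library was not analysed here.

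These few kinds of place held most of the strongest peaks. Chromosome ends, snRNA genes and FAM86 pseudogenes together had 34 of the 779 intergenic peaks at day 5, but 21 of the 35 with a −log10 q of at least 20 and 16 of the 18 with at least 50 fragments. Without doxycycline they had 22 of the 425, 7 of the 11 with a −log10 q of at least 20 and all 4 with at least 50 fragments. FAM86 pseudogenes were not a planned kind and were set apart after their values were seen. These counts of the strongest peaks therefore follow partly from that choice. The 589 day 5 peaks with no non-coding gene end within 1 kb and away from chromosome ends had a median of 11 fragments, and the 328 such peaks without doxycycline a median of 10.

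Among those, the highest at day 5 was a peak 40.3 kb from the start of FOXK1, a forkhead transcription factor gene (chr7:4641479-4642455). It had 125 fragments at day 5 (104.0 to 148.9) and 29 without doxycycline (19.4 to 41.6), a ratio of 4.31. Its neighbour in the same run had 19 fragments at day 5 and 17 without doxycycline. A peak 20.8 kb from CCNE1, which encodes cyclin E and drives entry into S phase, had 29 fragments at day 5 and 9 without doxycycline (chr19:29844462-29845717, ratio 3.22). Both pairs had intervals that did not overlap. A strong peak on chromosome 1 (chr1:16904874-16905267), 8.94 kb from RNU1-2, had 57 fragments at day 5 and 45 without doxycycline.

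Some genes of the immediate early response stood near intergenic peaks in both lists. The gene lists were chosen with earlier results of these data known, and the neuron list, given below, was also above the share of all coding genes. Of 30 genes of the AP-1 and early response list, 6 were the nearest coding gene, within 100 kb, of a day 5 peak (20%) and 5 of a peak without doxycycline (16.7%), against 2.89% of all 19974 coding genes at day 5 and 1.59% without doxycycline. They were FOS, FOSB and JUND, which encode AP-1 subunits, IER2, the phosphatase gene DUSP1 and the cytokine gene LIF, with FOS missing from the list without doxycycline. The FOSB peak, 3.69 kb from the far end of the gene, is the one given above beside TRU-TCA1-1, so it counts for both. The peak nearest IER2 had 26 fragments at day 5 and 18 without doxycycline, and that nearest DUSP1 had 16 at day 5 and 15 without doxycycline. LIF had 3 day 5 peaks, of which the highest had 25 fragments and no counterpart.

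Of 29 genes of the Myc network list, 3 were nearest to a day 5 peak (10.3%, against 2.89% of all coding genes) and 4 to a peak without doxycycline (13.8%, against 1.59%). LDHA, which encodes lactate dehydrogenase A, had a peak 10.4 kb from its start with 23 fragments at day 5 and 24 without doxycycline. ID1, an inhibitor of helix-loop-helix factors, had one of 26 fragments at day 5 and 17 without doxycycline. PTMA, the prothymosin alpha gene, had 3 peaks at day 5, of 15, 23 and 13 fragments. The first had a counterpart of 17 fragments, and a peak of 13 fragments without doxycycline lay just beyond the second without overlapping it. MGA, which encodes a Max partner, had a peak of 6 fragments without doxycycline only. At the MYC gene itself, the nearest intergenic peak at day 5 had 5 fragments and lay 139 kb before the gene (chr8:127596526-127596924), and the one without doxycycline had 4 fragments, 601 kb after it.

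Of 30 pancreatic cancer and epithelial genes, KRT8 and CLDN4 neighboured day 5 peaks, with 10 and 21 fragments, and ELF3 neighboured one of 16 fragments without doxycycline. Of 76 ribosomal protein genes, RPS14 neighboured a day 5 peak of 21 fragments and RPS16 one of 8 fragments without doxycycline. The neuron list, of a tissue these cells do not come from, had 3 of 20 genes at day 5 (15%) and 2 of 20 without doxycycline (10%), also above the 2.89% and 1.59% of all coding genes at day 5 and without doxycycline, with GRIN1 at 20 fragments at day 5 and 10 without doxycycline. The mesenchymal, acinar, hepatocyte and leukocyte lists had 0 genes in either library. Being the nearest gene is a position, and no expression was measured here, so the cell type of the label was not checked against its markers.

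Most intergenic day 5 peaks had no peak at the same place without doxycycline, while most of those without doxycycline were also listed at day 5. Of the 779 day 5 peaks, 471 (60.5%) overlapped no peak of the list without doxycycline, where 57.6% of all day 5 peaks overlapped none. Of the 425 peaks without doxycycline, 118 (27.8%) overlapped no day 5 peak, against 17.8% of all peaks of that list and 13.0% of those at coding gene ends. The other position classes of that list were close to intergenic peaks, at 26.8% inside coding genes and 27.5% only inside non-coding genes. The day 5 peaks with no counterpart had a median of 9 fragments (range 3 to 79), against 14.5 for those with one, and 249 of the 471 had under 10. The peaks without doxycycline that had no counterpart had a median of 7 (range 3 to 18), against 12 for those with one. Within classes of −log10 q, the day 5 intervals of intergenic peaks and of coding gene ends overlapped: from 5 to 10, a counterpart was found for 46.7% of intergenic peaks (40.7% to 52.8%) and 42.5% of peaks at coding gene ends (40.1% to 44.8%). Without doxycycline they did not overlap below a −log10 q of 10: from 3 to 5, it was 63.3% of intergenic peaks (54.1% to 71.9%) and 81.5% of peaks at gene ends (78.2% to 84.5%). The day 5 list is the longer one, and when it was shortened to its top 3468 peaks by rank it held 322 intergenic peaks, fewer than the 425 without doxycycline. The share with a counterpart then became 61.5% at day 5 and 47.3% without doxycycline.

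**Figure D4:**
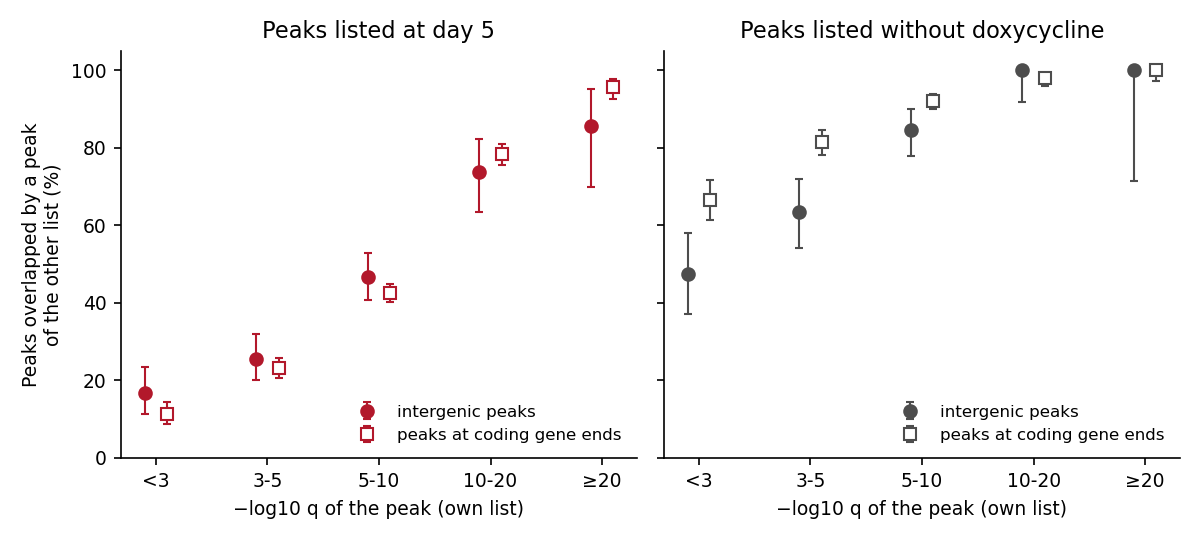
Points give the share of peaks, in percent, overlapped by a peak of the other list, by the −log10 q of the peak in its own list, for intergenic peaks (filled circles) and peaks at coding gene ends (open squares). Left, peaks listed at day 5, where the intervals of both position classes overlap throughout. Right, peaks listed without doxycycline, where intergenic points are lower below a −log10 q of 10. Error bars are exact 95% Clopper-Pearson intervals.

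At the 308 day 5 intergenic peaks with a counterpart, the median ratio of summit fragments, day 5 over without doxycycline, was 1.33 (quartiles 1.08 and 1.63). The median over all 2846 shared pairs was 1.43 (1.13 and 1.78), and that of coding gene ends 1.44. At least 2 times as many fragments at day 5 were counted at 38 of the 308 (12.3%), against 18.3% of all pairs. Fewer fragments at day 5 were counted at 53 of the 308 (17.2%), against 14.0% of all pairs. Pairs only inside non-coding genes were similar, with a median ratio of 1.36, 10.4% at 2 times or more and 17.1% with fewer. Inside coding genes the median was 1.38, with 17.9% at 2 times or more and 19.0% with fewer. The Poisson intervals of the 2 libraries were apart at 9 of the 308, each with more at day 5. Of all 2846 pairs, 109 were apart (3.83%), and only 3 of these had fewer fragments at day 5. Beside snRNA genes the 12 pairs had a median ratio of 1.86 (range 1.55 to 2.35). Most of these pairs lay at the repeated copies beside RNU2-1 or at U1 genes. Reads may have been divided among such copies, so the pairs are not separate observations. Beside FAM86 pseudogenes the 7 pairs had a median ratio of 1.44, and beside tRNA genes the 13 pairs had one of 1.21 (range 0.577 to 1.58). The local background of the shared intergenic peaks, recovered from the same values, was 1.47 times as high at day 5 in the median. Over all shared pairs this was 1.60 times, and at coding gene ends 1.63 times. The part of the background in the ratios was not tested. The total number of reads was not given in the lists, so depth and binding cannot be told apart.

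**Figure D5:**
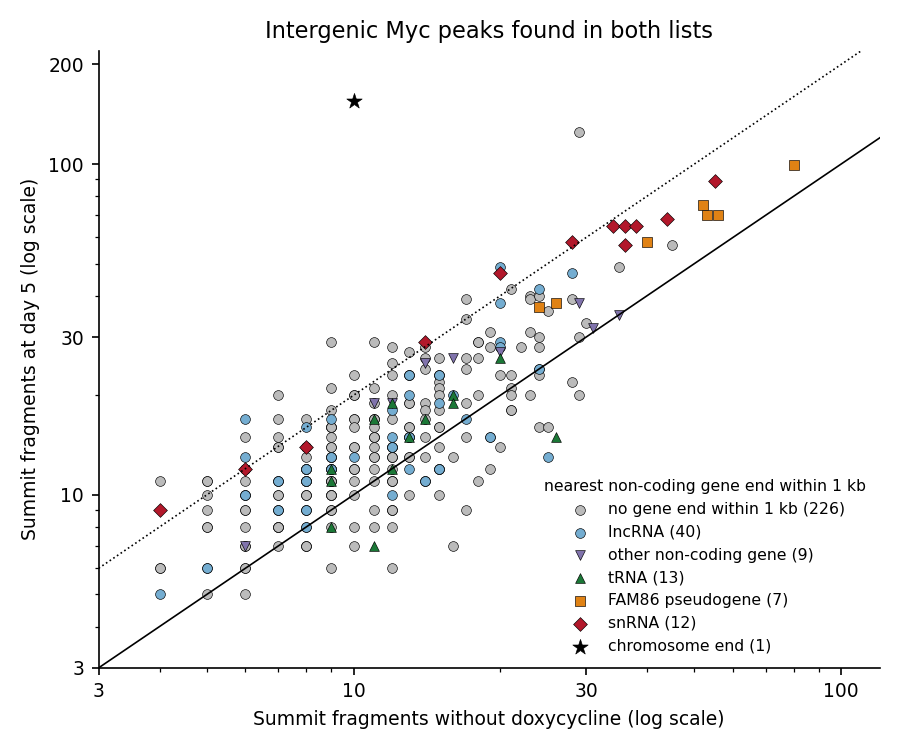
Each point is an intergenic day 5 peak that overlapped a peak without doxycycline, with fragments over the summit at day 5 (vertical) against those without doxycycline (horizontal), both on log axes. The solid line marks equal numbers and the dotted line 2 times as many at day 5, and colours give the kind of gene end within 1 kb. The star is the start of chromosome 5, at 155 fragments at day 5 and 10 without doxycycline, and the snRNA points lie above the solid line.

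Few intergenic peaks formed runs. With less than 10 kb between neighbours, 20 of the 779 day 5 peaks were in 5 runs of at least 3 peaks (2.57%), against 1.71% of all day 5 peaks. Without doxycycline, 7 of the 425 were in 2 such runs (1.65%, against 0.692%). With 25 kb the order was the other way, at 4.62% against 9.87% of all peaks at day 5. Without doxycycline it was 3.53% against 4.99%. Of the 20 day 5 peaks, 10 were those beside RNU2-1. The others lay near CPN2 on chromosome 3, near LIF, and at ENEMAL and LINC02736 on chromosome 11. Gene-free stretches over 1 Mb, which hold 13.3% of the sequence with assembly gaps included, had 6 intergenic peaks at day 5 and 3 without doxycycline. The highest of these was on chromosome 3 (chr3:93470358-93470746), with 49 fragments at day 5 and 35 without doxycycline. Reads in repeats, such as those of centromeres, are of uncertain placement, and this was not checked for these peaks.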

How the data were processed

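Myc CUT&Tag peak lists of 2 libraries were used, 1 titled as 5 days of doxycycline and 1 without, and 22 of the 24 samples were not analysed here. Fixation was with 0.1% formaldehyde, per the labels' protocols, which give 2 days of doxycycline where the title gives 5. The tools were MACS2, deepTools, Bowtie2 and Trim Galore, with build hg38, per the submitters' processing notes. Their versions and settings, and whether an IgG control was used in calling, are not stated in the sources used here. The deposited lists have 10 columns and hold 1 library each, with no sign of pooling. The deposited score is the integer part of 10 times the −log10 q-value. The fold the authors deposited is a ratio of the summit to the local background. Deposited as well were a p-value and a q-value at each summit, both as −log10, with a smallest −log10 q of 1.33 in each list.

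Fragments over each summit were recovered from fold and p-value, taking the fold as (fragments + 1)/(background + 1) and p as a Poisson tail. This gave whole numbers within 0.001 in −log10 p for 100% of the 6718 and 3468 peaks on chromosomes 1 to 22 and X of the day 5 list and of the list without doxycycline. The 235 and 91 peaks on other sequences, of 6953 at day 5 and 3559 without doxycycline, were left out. Duplicate fragments cannot be seen in peak lists. Gene spans, lncRNA start windows and microRNAs came from RefSeq for GRCh38.p14, which is the hg38 assembly; strand was known only where a start window was given. No genome sequence was used, so motifs planned at summits were searched in start windows only. Peaks overlapping by at least 1 bp were counterparts. Intervals are exact at 95%. The recovery, the classing and the overlaps were tested on simulated data. Regions were named by rank in −log10 q (10 shared, 10 in each list only), by kind of non-coding neighbour and by gene list; further regions, such as the end of a run, a member of a repeated gene family, the start windows and the pairs with the highest ratio, were chosen after their values were seen. Of 270 list symbols in 9 lists, 269 matched. The members and lists were chosen with earlier results of these data known. Python 3.11.15, pandas 2.3.3, numpy 2.4.6 and scipy 1.17.1 were used.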

Additional observations from a re-analysis of the deposited data

Results flagged for a closer look

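Chromosome Y, which the comparisons leave out, had 9 listed peaks at day 5 and 4 without doxycycline. They are given because they are signal in data that the report does not use.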

How the results depend on the processing

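Of 94 values under other settings, 68 stayed within the interval of the reported value, or within 1.5 times a count. The share of peaks that are intergenic became 9.20% at day 5 and 10.4% without doxycycline in the upper 50% of each list by rank, 10.7% and 11.2% with a window of 2.5 kb at coding gene ends, and 9.76% and 10.0% with 5 kb. It became 9.11% and 9.76% without peaks within 1 kb of a non-coding gene end, and at day 5 12.5% when pseudogene spans were ignored. The upper 50% held 309 intergenic peaks at day 5 and 181 without doxycycline, and 478 and 227 had at least 10 fragments. The share with a counterpart became 43.7% at day 5 in the upper 50% and 80.2% without doxycycline from 10 fragments up. With 50% reciprocal overlap it was 31.6% at day 5 and 58.6% without doxycycline. With equal numbers of peaks it was 61.5% and 47.3%, the day 5 share of intergenic peaks was 9.28%, and the ratio of their number, 1.83 as listed, reversed to 0.758 (322 at day 5 over 425). Peaks in runs of 3 or more numbered 6 at day 5 and 0 without doxycycline with 5 kb between neighbours, and 36 and 15 with 25 kb. The cause of these shifts was not tested, beyond the peaks each setting removes or adds. The median ratio of summit fragments at shared pairs was 1.33 with summits within 500 bp and 1.29 at the 183 pairs with at least 10 fragments in both. No paired analysis was possible because each condition has 1 library. Under 10 fragments were counted at 38.6% of intergenic peaks at day 5 and 46.6% without doxycycline, against 34.8% and 42.2% of all peaks of each list.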
